A study of Dunaliella salina with 4 samples.

Results

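The entries described here are 200 transcripts of Dunaliella salina with high read counts and similar normalised counts in all 4 cultures that were sequenced. They were chosen from the deposited normalised counts in 3 steps. Of 17872 entries, 14363 are named by a locus tag with no further numeric suffix, and 13405 of these were above 0 in all 4 libraries. In 976 of the 13405, or 7.28%, the highest of the 4 values was at most 1.5 times the lowest. The 200 of these 976 with the highest mean were taken. Their steadiness is thus how they were chosen, and it is described below without a test.

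The study set 2 deep-water cultures against 2 control cultures, both wild type and described as biological replicates of vegetative cells taken as whole cultures. Deep-water cultures were grown in natural water from Sistan, for which the labels give no salt content, and control cultures in standard medium with 30 g/L NaCl. All cultures had 16 h of light and 8 h of darkness at 25 ± 2 °C, and exponentially growing cells were divided between the treatments. Every library carries a different batch label, and treatment and batch cannot be told apart.

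D. salina is a single-celled green alga with no rigid cell wall. It balances the salt outside by making glycerol inside the cell, and many strains store beta-carotene in the chloroplast under stress. Transcripts that keep a steady level between conditions are commonly sought as internal references for quantitative PCR. Steadiness is always relative to a scaling, and the median-of-ratios scaling used for the deposited values takes the typical transcript as unchanged.

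All 200 entries matched locus tags of the Dunsal1 v. 2 annotation of strain CCAP 19/18, and all 200 are annotated there as protein coding. The labels, the files and the annotation table used here do not say what they encode, so no member can be assigned to a pathway, and the members are ordered below by level and by pattern. A normalised count is the number of reads of an entry divided by 1 size factor per library. It is not divided by transcript length, so an order by mean is an order of reads and not of transcript numbers.

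The libraries held 127736776 and 149180358 counts in deep water 1 and 2, and 78109607 and 109813468 in control 1 and 2. Each member had at least 1096 counts in every library. At that lowest count the exact Poisson 95% interval is 1032 to 1163, and the standard error from counting is 3.02%. This covers counting error only, since reads copied by PCR are not independent molecules.

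The steady entries had high read counts but were not the entries with the most reads. Ranked by mean normalised count among the 13405, none of the first 420 entries stayed within 1.5-fold. The first member, DUNSADRAFT_3374, held rank 421, and the last held rank 3653. The median rank was 2687.5. The members' means ran from 1920 to 20237 normalised counts with a median of 2572. Of the 200, 124 lay under 3000 and 22 above 5000.

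The share of entries within 1.5-fold differed with the level. It was 0.20% among ranks 1 to 500, 1.4% among ranks 501 to 1000 and 5.1% among ranks 1001 to 2000. It reached 9.0% among ranks 2001 to 4000 and 11.3% among ranks 4001 to 8000, and was 5.29% among ranks 8001 to 13405. The median fold from the lowest to the highest library was 5.88 among the first 500 entries and 2.49 among ranks 4001 to 8000. The median log2 fold change of deep water over control, from the normalised group means, was 1.64 among the first 500 and -0.10 among ranks 4001 to 8000.

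**Figure D1:**
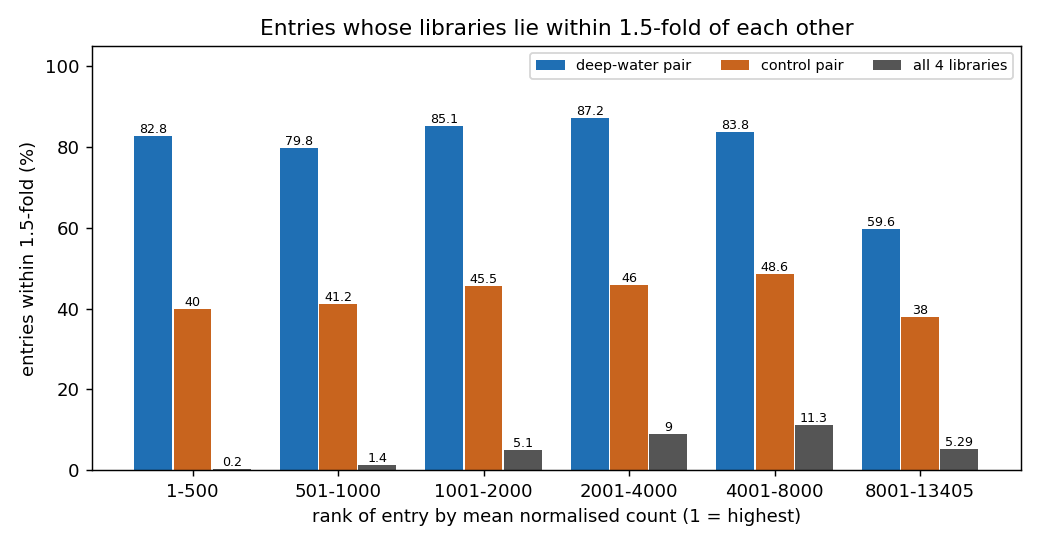
Percent of entries (vertical axis) whose normalised counts lie within 1.5-fold of each other, in classes of rank by mean normalised count (horizontal axis, rank 1 highest), for the deep-water pair, the control pair and all 4 libraries. Among ranks 1 to 500 the deep-water pair lay within 1.5-fold for 82.8% of entries and the control pair for 40.0%, while all 4 libraries did so for 0.20%.

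The control pair limited the choice more than the deep-water pair. Over the 13405 entries, the deep-water libraries lay within 1.5-fold of each other for 9982 entries, or 74.5%, and the control libraries for 5779, or 43.1%. Within the range of means of the members, 3233 entries were measured, of which 200, or 6.19%, were the members. The other 3033 had a median fold from lowest to highest of 3.23 (quartiles 2.30 and 5.09), against 1.35 for the members (quartiles 1.24 and 1.43), a gap that the choice itself sets. Of these 3033, 2546 were within 1.5-fold in the deep-water pair and 1234 in the control pair.

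The member with the highest mean was DUNSADRAFT_3374, with 20992 and 22647 normalised counts in deep water 1 and 2, against 19700 and 17609 in control 1 and 2. Deep water 1 and 2 were each higher than either control, and the log2 fold change was 0.23. DUNSADRAFT_10864, the next, had 14073 and 14053 normalised counts in deep water and 12935 and 11635 in control, again with no overlap and a log2 fold change of 0.20. In both entries the deep-water libraries were the higher ones, while the highest value was at most 1.29 times the lowest.

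In the other 8 of the 10 members with the highest mean, the groups overlapped. DUNSADRAFT_8941 had 10183 and 7069 normalised counts in deep water, with 8152 and 8367 in control. DUNSADRAFT_3557 had 5960 and 8601 in deep water, with 8491 and 8202 in control. In these 2 entries the deep-water libraries differed more from each other than the controls did, in opposite directions.

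The reverse was seen in DUNSADRAFT_2038, with 6437 and 6814 normalised counts in deep water and 8271 and 6084 in control. In DUNSADRAFT_16574, with 6330 and 7762 in deep water and 6439 and 7074 in control, the deep-water libraries again differed more. DUNSADRAFT_16894 had 6463 and 6531 in deep water and 5681 and 8477 in control. The deep-water values of DUNSADRAFT_16894 were nearly equal, while its controls spanned the full range of the entry, 1.49-fold.

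Among the remaining members of this group, DUNSADRAFT_1318 had 8454 and 5668 normalised counts in deep water and 7029 and 5915 in control. DUNSADRAFT_1634 had 8067 and 5717 in deep water and 6677 and 5726 in control. DUNSADRAFT_2505 had 6024 and 6649 in deep water and 5240 and 7849 in control. Deep water 1 was the highest library for DUNSADRAFT_1318 and DUNSADRAFT_1634, and control 2 for DUNSADRAFT_2505.

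**Figure D2:**
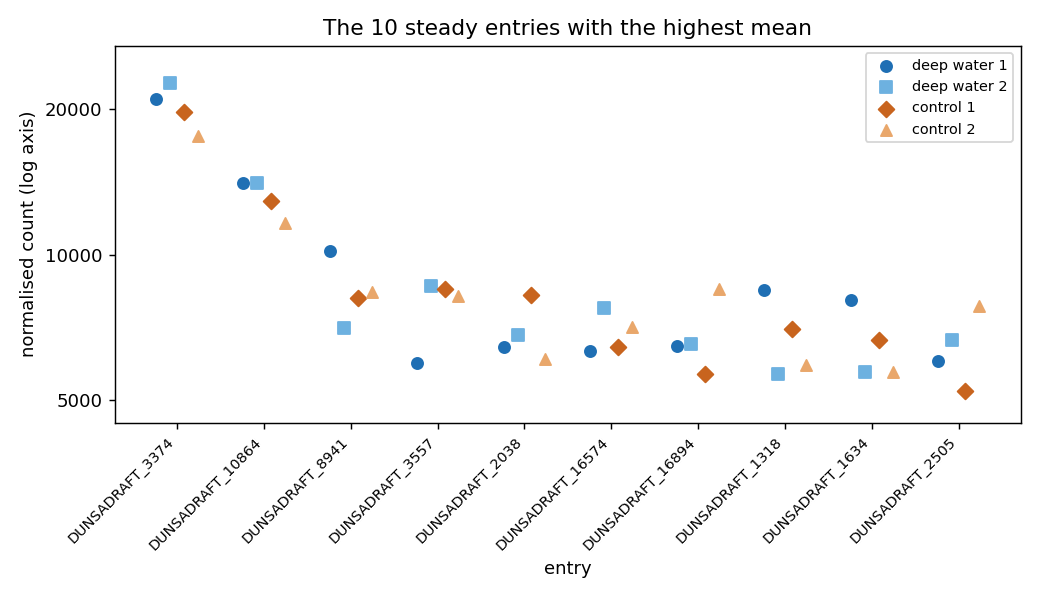
Normalised counts (vertical log axis) of the 10 members with the highest mean, left to right from highest to lowest, 1 symbol per library with no averaging. For DUNSADRAFT_3374 and DUNSADRAFT_10864 both deep-water points lie above both control points; in the other 8 entries the groups overlap.

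The steadiest member was DUNSADRAFT_16316, with 2581 and 2672 normalised counts in deep water and 2560 and 2579 in control, a fold from lowest to highest of 1.04. DUNSADRAFT_10470 had 4436 and 4437 in deep water and 4186 and 4162 in control. The fold from lowest to highest of DUNSADRAFT_10470 was 1.07, and nearly all of it lay between the groups rather than within them. DUNSADRAFT_11297 had 2979 and 2926 in deep water and 2773 and 2823 in control. DUNSADRAFT_5535 had 1993 and 1937 in deep water and 1990 and 2086 in control, and was the only one of these 4 whose groups overlapped. Of the 200, 9 lay within 1.1-fold, 25 within 1.2-fold, and 68 lay above 1.4-fold.

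The least steady members sat just inside the limit. DUNSADRAFT_14697 had 3520 and 3117 normalised counts in deep water and 2768 and 2349 in control, a fold from lowest to highest of 1.499, with deep water above control. DUNSADRAFT_13490 had 2374 and 1974 in deep water and 2953 and 2110 in control. DUNSADRAFT_2505 and DUNSADRAFT_16894, given above, were the other members closest to the limit. In these 4 members the groups overlapped, except in DUNSADRAFT_14697. Of entries in the same range of means, DUNSADRAFT_9201 and DUNSADRAFT_14928 lay closest outside, at 1.5007 and 1.5009. DUNSADRAFT_9201 had 3187 and 2424 in deep water and 2123 and 2609 in control, and DUNSADRAFT_14928 had 1858 and 1683 in deep water and 1885 and 2526 in control.

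The other cut-off was the mean. The last members taken were DUNSADRAFT_14182, with a mean of 1924 normalised counts, and DUNSADRAFT_115, with a mean of 1920. The first left out were DUNSADRAFT_17256 and DUNSADRAFT_11483, with means of 1919 and 1917. Nothing in the level separates these 4 entries beyond a difference of a few normalised counts.

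Between the groups, the members divided almost evenly. The deep-water mean was the higher one in 102 members and the lower one in 98. The median log2 fold change of deep water over control was 0.01, with quartiles of -0.17 and 0.16 and a range from -0.51 to 0.50. In 150 members the group means differed by less than 1.2-fold. Over all 13405 entries the median was -0.08, with quartiles of -0.84 and 0.86. The narrow range of the members follows from the limit on the fold.

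Deep water 1 and 2 were each higher than either control in 44 members and each lower in 43, while the groups overlapped in 113. Among all 17858 entries tested, 30.0% lay above and 31.0% below. The limit bounds how far groups can separate, so the smaller shares of the members are not read as a result. The 4 members with the highest log2 fold changes, from 0.44 to 0.50, were DUNSADRAFT_496, DUNSADRAFT_8236, DUNSADRAFT_4893 and DUNSADRAFT_7689. DUNSADRAFT_496 had 3927 and 3891 normalised counts in deep water and 2633 and 2882 in control. DUNSADRAFT_8236 had 2884 and 2557 in deep water and 1955 and 1979 in control. DUNSADRAFT_4893 had 2986 and 3195 in deep water and 2348 and 2193 in control. In each of them the gap between the groups was wider than the gap within either group.

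DUNSADRAFT_7689 showed the same order, with 2215 and 2623 normalised counts in deep water and 1772 and 1795 in control. The 4 members with the lowest log2 fold changes, from -0.51 to -0.43, were DUNSADRAFT_14182, DUNSADRAFT_10970, DUNSADRAFT_17775 and DUNSADRAFT_14720. DUNSADRAFT_14182 had 1657 and 1518 in deep water and 2262 and 2258 in control. Its controls were nearly equal, and both deep-water values lay well below them. DUNSADRAFT_10970 had 2424 and 2537 in deep water and 3371 and 3581 in control. DUNSADRAFT_17775 had 2093 and 2282 in deep water and 2982 and 2917 in control. DUNSADRAFT_14720 had 2107 and 1937 in deep water and 2566 and 2880 in control. These 8 members passed the limit while their groups did not overlap, so a steady entry by this rule can still differ in the same direction in every library.

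**Figure D3:**
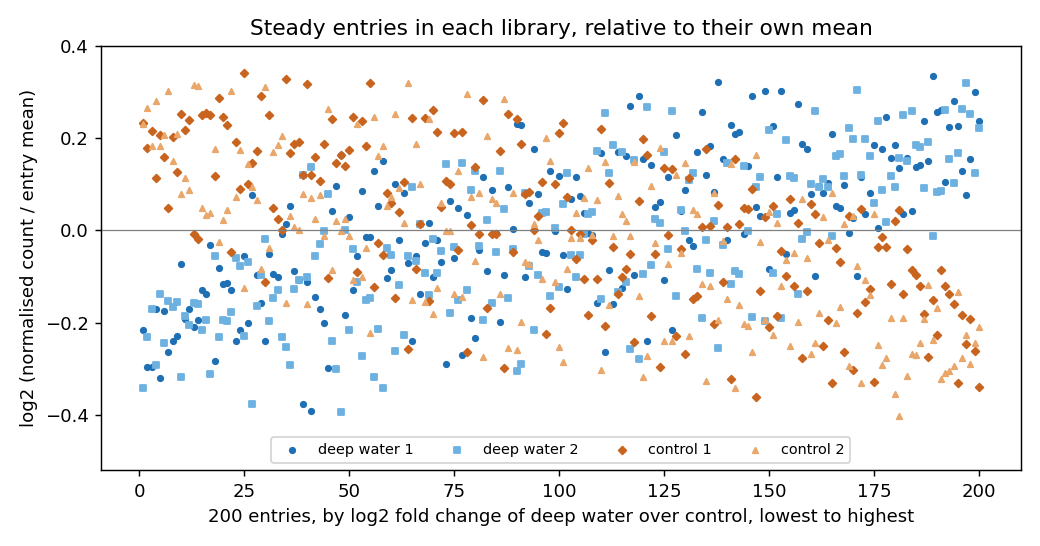
Log2 of the normalised count over the entry's own mean (vertical axis) in each library, for the 200 members ordered along the horizontal axis by log2 fold change of deep water over control. Deep-water points lie below control points at the left end, where the log2 fold change is -0.51, and above them at the right end, where it is 0.50.

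No member passed edgeR's quasi-likelihood test of deep water against control at an adjusted p under 0.05, and none had an unadjusted p under 0.05. Over all 17858 entries, 0% were called and 24.5% had an unadjusted p under 0.05. The DESeq2 Wald test called 0 of the 200 members, where it called 16.9% of all entries, and limma-trend called none of either. Neither of these gave a member an unadjusted p under 0.05. Without control 1 or control 2, edgeR again called 0 members, where it called 16.4% and 34.8% of all entries. The choice of members used these same differences, so the counts are a description. Leaving out either control leaves a single control library, so the spread within groups then comes from the deep-water pair alone. The shares of entries called in those fits are therefore not comparable with the 0% of the fit to all 4 libraries. The standard error of the edgeR log2 fold change ran from 0.31 to 0.43 over the members, with a median of 0.34. For DUNSADRAFT_16316 the edgeR log2 fold change was 0.06 ± 0.32 (SE, n = 2 libraries per group), although its values spanned 1.04-fold. The fit draws the variation of an entry towards that of others of its level, so the 4 close values of one entry do not by themselves show that its true level was the same in both waters.

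No single library set the members' spread. The highest of the 4 values fell in deep water 1 for 51 members, in deep water 2 for 47, in control 1 for 60 and in control 2 for 42. The lowest fell in deep water 1 for 40, in deep water 2 for 55, in control 1 for 46 and in control 2 for 59. Highest and lowest lay in different groups for 147 members, both in deep water for 23 and both in control for 30.

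Within the groups, the members' median fold between libraries was 1.11 for the deep-water pair and 1.15 for the control pair. It was 1.18 and 1.66 for the 3033 other entries in the same range of means. Between a deep-water and a control library, the members' median fold ran from 1.14 to 1.17 over the 4 pairings. For the other entries it ran from 1.92 to 2.44. Pairs of libraries from different groups were thus about as close as the control pair among the members, within the bound of the rule.

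The steadiness of these entries held for the deposited scaling and was lost when libraries were scaled by their totals alone. The members took 0.413% and 0.312% of all counts in deep water 1 and 2, against 1.04% and 0.769% in control 1 and 2. The group means were 0.363% ± 0.071 in deep water and 0.907% ± 0.195 in control (SD, n = 2 each). The median member had 16.5 and 12.7 counts per 1000000 counts of the library (CPM) in deep water, and 42.5 and 31.1 CPM in control. For DUNSADRAFT_3374 the values were 132 and 110 CPM in deep water, against 315 and 214 CPM in control.

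By CPM, deep water 1 and 2 were each lower than either control in all 200 members, and in 67.7% of all entries tested. The median log2 fold change of the members was then -1.32, with a range from -1.84 to -0.82, while the median of all entries tested was -1.48 in edgeR's fit with library size alone, where that of the members was also -1.32. Their fold from lowest to highest library ran from 2.22 to 4.92, so that 0 of the 200 stayed within 1.5-fold. With library size alone, edgeR's quasi-likelihood test called 2 members lower at an adjusted p under 0.05, where 19.2% of all entries were called lower. The lowest adjusted p of any entry in that edgeR test was 0.0485, so all these calls lay just under the threshold. At an unadjusted p under 0.05 the test gave 126 members lower and 0 higher, where 45.1% of all entries were lower. With TMM scaling 190 of the 200 stayed within 1.5-fold. Like the deposited scaling, TMM takes the typical entry as unchanged, so it is no independent check of that scaling.

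The gap between the scalings is the gap between the factors. The size factors were 0.804 and 0.725 in deep water and 1.25 and 1.33 in control, while the totals run the other way, with more counts in the deep-water libraries. In bulk libraries fewer cells with a transcript and less of it per cell cannot be told apart, and the labels name no added standard RNA. Whether the absolute level of these transcripts per cell was the same in both waters was therefore not measured.

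Ranks within a library do not depend on its scaling factor. Ranked by count among all 17872 entries, with rank 1 the highest, the median member held rank 2944 in deep water 1 and 3022 in deep water 2, against 2877 in control 1 and 2747.5 in control 2. Members lay between ranks 506 and 4803 in deep water 1 and between 526 and 5052 in deep water 2. They lay between ranks 321 and 4709.5 in control 1 and between 487 and 4585 in control 2. The median rank was a higher number, that is a lower place, in both deep-water libraries. The controls, at 2877 and 2747.5, lay further apart than deep water 1 and control 1, at 2944 and 2877. A rank also moves when other entries rise or fall, so these ranks do not show a change in the members themselves.

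**Figure D4:**
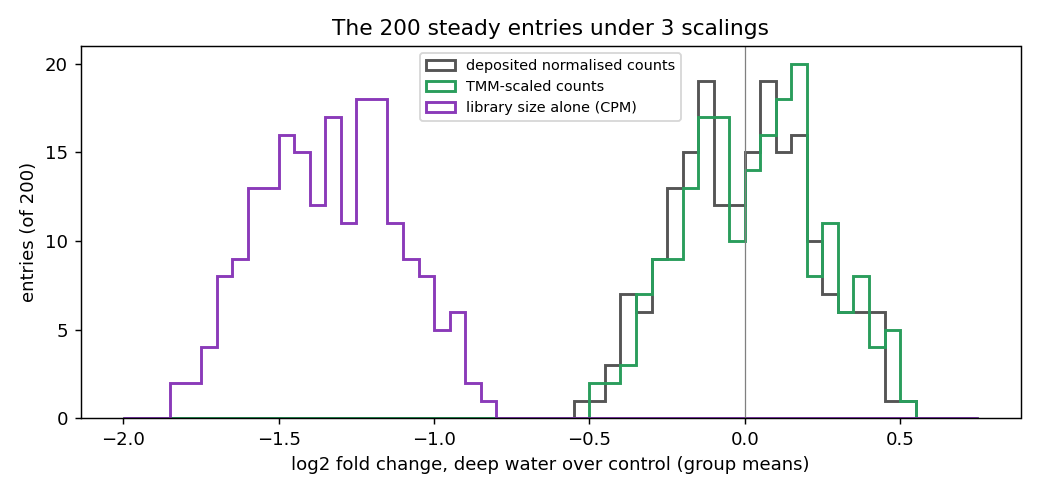
Number of members (vertical axis) by log2 fold change of deep water over control (horizontal axis, from group means) under 3 scalings. The members centre near 0 with the deposited and the TMM scaling and at -1.32 with library size alone, where all 200 lie below 0.

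In the order of the annotation, 4 pairs of members were direct neighbours, 8 of the 200 entries in all. How the members lay along it beyond direct neighbours was not tested. The table does not say which assembled sequence holds an entry, so neighbours in its order may lie apart. DUNSADRAFT_2383 had 4975 and 4783 normalised counts in deep water and 6522 and 5603 in control, and its neighbour DUNSADRAFT_2384 had 2645 and 3437 in deep water and 3026 and 3901 in control. DUNSADRAFT_666 had 2084 and 2392 in deep water and 2725 and 2375 in control, and DUNSADRAFT_667 had 3230 and 3119 in deep water and 3572 and 3883 in control. All 4 of these had a lower mean in deep water, with log2 fold changes from -0.31 to -0.19.

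DUNSADRAFT_13617 had 3168 and 2496 normalised counts in deep water and 3433 and 3119 in control, next to DUNSADRAFT_13618 with 1700 and 1980 in deep water and 1857 and 2489 in control. DUNSADRAFT_14181 had 2029 and 2882 in deep water and 2684 and 1984 in control, next to DUNSADRAFT_14182, given above. The pair DUNSADRAFT_14181 and DUNSADRAFT_14182 did not share a direction, with log2 fold changes of 0.07 and -0.51.

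The other neighbours of the members were also counted. The members had 389 direct neighbours that were no members, of which 309 had no suffix and were above 0 in all 4 libraries. Of these 309, 23 stayed within 1.5-fold, or 7.44%. The share over all 13405 entries was 7.28%, but it counts the members, which the 309 leave out. The shares are thus of unlike sets, and whether neighbours of members are steady more often was not tested. The median fold from lowest to highest library was 3.02 for the 309, against 2.91 for all 13405.

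The list of members also depended on how many libraries had to agree. When the rule was applied to 3 libraries, the number of entries within 1.5-fold was 1724 and 1699 without deep water 1 and 2, and 3319 and 2271 without control 1 and 2, against 976 with all 4. Fewer libraries can only widen the set, since each entry then has fewer values to hold together. Of the 200 highest entries chosen that way, 110 and 127 were members without deep water 1 and 2, and 34 and 59 without control 1 and 2. Leaving out either control thus changed the list more than leaving out either deep-water library, and control 1 changed it most.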

How the data were processed

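RNA was sequenced from 4 cultures, 2 per group. Total RNA was extracted with the RNX-Plus reagent, per the labels' protocols. The authors deposited raw counts per annotated entry and a table of normalised signal values. The deposited normalised values equalled the counts divided by the DESeq2 median-of-ratios size factor of each library (largest relative difference 7.07e-15). R 4.5.1 and DESeq2 are named in the submitters' processing notes. Aligner, counter and genome build remain not given in the sources used here. From the annotation, only names, the protein-coding label and the order of locus tags were used.

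Members were taken from the deposited normalised counts. The test was edgeR's quasi-likelihood test (edgeR 4.0.16, R 4.3.3) on the raw counts of all 4 libraries, with TMM factors, edgeR's own filter on low counts, leaving 17858 entries, Benjamini-Hochberg adjustment at 0.05 and the group as its single term. The standard error is the absolute log2 fold change over the square root of F. Alternatives used DESeq2 1.42.0 and limma 3.58.1. The fit was tested on simulated data with changes larger than those of any member, so that test does not cover changes as small as theirs. The simulated entries all had the same set variation, which was not estimated from these libraries. How large a change these libraries would reveal was thus not tested. CPM are counts per 1000000 of the library total. Log2 fold changes come from group means of normalised counts unless edgeR is named. The edgeR p-values weigh the difference between groups against the variation within groups, which the fit draws towards that of entries of similar level. The alternatives for the numbers of entries and members within the limit were chosen after seeing the data. Members and lists were chosen with earlier results of these data known. Members named are the 10 with the highest mean, the 4 at each end of the fold and of the log2 fold change, those at the cut-offs and the neighbouring pairs. The product lists could not be matched to locus tags, so none was tested.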

Additional observations from a re-analysis of the deposited data

How the results depend on the processing

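edgeR's quasi-likelihood test called 0 entries with TMM factors, with DESeq2 size factors, without a filter or with at least 10 counts in all 4 libraries, as did limma-trend with pseudocounts of 1 and 5. It called 3438 with library size alone, DESeq2 called 3028, and leaving out each library gave 0 to 6205, with 2923 without control 1 and 6205 without control 2. Leaving out a library leaves its group with a single one, so the spread then comes from the other pair alone. The counts of calls without a library are therefore not comparable with that of all 4 libraries. With the replicate block, 0 entries were called and 3769 had an unadjusted p under 0.05, against 4371 without it. Same-numbered libraries deviated together at r = 0.07, which is no sign of pairing. The edgeR median log2 fold change of the members was 0.037. It was 0.041 with the block, 0.0051 with size factors and -1.32 with library size alone, and ran from -0.017 to 0.039 over the fits that left out 1 library.

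Of the 200 members, the rule kept 185 with TMM scaling and 153 with counts summed per locus tag, 0 with library size alone, 80 with a limit of 1.3, 54 with a limit of 2, and 34 to 127 with 1 library left out. Entries within the limit numbered 976, and 988, 1164, 522, 316, 3223 and 1699 to 3319 in the same order. Members within the limit numbered 190, 200, 0, 80 and 200, and 200 without any one library. The values of 200 with a limit of 2 and without any one library were fixed by the rule. Summing per locus tag leaves an entry unchanged where its tag has no other entry. The 200 members within the limit with summed counts may thus also be set by construction. A limit of 2 admits entries with higher means, which take the members' places by construction. With library size alone all 32 named members lay below 0, and 15 changed sign. Under TMM scaling 1 changed sign, and 3 to 5 did so when each library was left out.

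If every read is taken as independent, the standard error of a member's count from counting alone was at most 3.02%. It is larger where reads are PCR copies. The comparison rests on 2 libraries per group, each with its own batch label.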

Other observations

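Entries whose names carry a second numeric suffix were kept out by the rule. There were 3509 of them on 1691 locus tags, and 3128 were above 0 in all 4 libraries. Of these, 262 lay within 1.5-fold, or 8.38%, against 7.28% of entries without a suffix. The mean of 47 of the 262 was at least that of the last member, DUNSADRAFT_115. The labels and files do not explain the suffix, and how reads were shared between entries of 1 locus tag can set these values.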
